A study of Mus musculus with 18 samples.

Results

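The 35 genes described here are type I interferon stimulated genes, taken as every row whose gene name was on a list of 35 members, out of 55416 genes in the count table. All 35 were found, and all 35 passed the filter on low counts that left 17040 genes for testing. They were measured by RNA sequencing in monocytes sorted from the spleens of C57BL/6 mice on day 3 after the mice received either PBS, the vehicle, or IVIg in vivo. IVIg is pooled human immunoglobulin G given intravenously, used to dampen autoimmune inflammation. There were 6 groups of 3 libraries: WT PBS, WT IVIg, Dectin-1-/- PBS, Dectin-1-/- IVIg, FcgRIIb-/- PBS and FcgRIIb-/- IVIg. Clec7a encodes Dectin-1, a receptor of myeloid cells for fungal glucans, and Fcgr2b encodes FcgRIIb, the Fc receptor that inhibits signalling on binding IgG. The series' design text gives 3 independent mice per group. Some title codes, whose meaning is not given, are shared by 2 libraries, so p-values measure the spread between these libraries. Sharing within a group occurs for Dectin-1-/- PBS replicates 2 and 3 and for FcgRIIb-/- PBS replicates 1 and 2. Another code is shared by WT IVIg replicate 3 and FcgRIIb-/- PBS replicate 3. That the mice of these libraries are independent rests on the design text alone. The labels name no Cre driver or pooling of animals for either knockout.

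Type I interferons bind the receptor IFNAR1/IFNAR2, whose kinases JAK1 and TYK2 phosphorylate transcription factors such as STAT2. STAT2 joins IRF9 in a complex that binds the interferon-stimulated response element in the promoters of many genes. The products degrade foreign RNA, sense nucleic acids, attach the ubiquitin-like protein ISG15 to other proteins, or block virus entry and release. Monocytes hold a tonic level of many of these transcripts and raise them steeply when interferon is present.

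Total counts were 16996494 to 48958909 in 17 libraries, and 719494 in FcgRIIb knockout PBS replicate 2, here called the shallow library. Clec7a stood at 0.247 to 4.05 CPM (counts of a gene scaled to a common library size) in the 6 Dectin-1 knockout libraries and at 360.4 to 956 CPM in the other 12. Fcgr2b stood at 129.9 to 249.9 CPM in the 6 FcgRIIb knockout libraries and at 208 to 318 CPM in the other 12. These ranges overlapped. The deleted exons of Fcgr2b are not stated in the labels, and a whole-gene count therefore does not check that genotype. The 9 markers of monocytes summed to between 22803 and 43712 CPM in every library. Markers of other cells were present at different levels. Red pulp macrophage markers (9 genes) summed to 524 to 786 CPM, mostly from Adgre1 and Hmox1. Plasma cell markers (7 genes) summed to 341 to 1247 CPM, mostly from Xbp1, with Tnfrsf17 at 0 in 12 libraries. Conventional dendritic cell markers (7 genes) summed to 234 to 506 CPM, mostly from Cd209a and Flt3. T cell markers (10 genes) were at 10.6 to 66.2 CPM and plasmacytoid dendritic cell markers (10 genes) at 86.4 to 165 CPM in the 17 deeper libraries. Tcf4 and Bcl11a gave most of the latter sum, while Siglech, more particular to those cells, was at 0 to 3.58 CPM and Klk1 was at 0 in 13 libraries. Of the T cell markers, Cd4 had the highest median, at 14.7 CPM, while Cd3e had a median of 0.352 CPM and was at 0 in 4 libraries. Neutrophil markers (9 genes) ranged from 3.93 to 1035 CPM.

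The promoters of 13 of the 25 members found in the RefSeq promoter table (52.0%) held the core of the interferon-stimulated response element, searched on both strands as GAAA, any 2 bases, GAAA. The window ran from 250 bases before to 50 bases after the gene start in GRCm38.p6, an older build than the GRCm39 of the counts. The core was held by 3.99% of the 27025 genes with an entry, and by 41.4% of 111 further pathway genes. Some matches overlapped one another, as in Isg15 and Oas1a. The other 10 members had no entry and were not searched: Oas2, Dhx58, Zbp1, Ifi204, Usp18, Mx1, Mx2, Rtp4, Parp14 and Ifi27l2a. A match is a string of letters and was not tested for binding. The stretches below show the element shared by members with different roles, each read along the strand of its gene with the core in capitals, so TTTC, any 2 bases, TTTC is the core on the other strand.
Stat2, chr10:128270261-128270300, plus strand: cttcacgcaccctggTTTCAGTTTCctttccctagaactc
Ifit1, chr19:34640789-34640828, plus strand: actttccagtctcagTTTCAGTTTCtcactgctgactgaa
Ifit3, chr19:34583392-34583431, plus strand: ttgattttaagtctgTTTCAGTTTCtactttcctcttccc
Ifit3b, chr19:34607788-34607827, plus strand: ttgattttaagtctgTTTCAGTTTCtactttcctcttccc
Oas1a, chr5:120907526-120907554, minus strand: ccttctcgggaaatgGAAACTGAAAatct
Oas1g, chr5:120887614-120887640, minus strand: ccttctcgggaaatgGAAACTGAAAat
Oas3, chr5:120777710-120777749, minus strand: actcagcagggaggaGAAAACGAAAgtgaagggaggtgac
Isg15, chr4:156200860-156200899, minus strand: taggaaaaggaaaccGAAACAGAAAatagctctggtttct
Bst2, chr8:71537572-71537611, minus strand: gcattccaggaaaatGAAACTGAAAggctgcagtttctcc
Rsad2, chr12:26456548-26456587, minus strand: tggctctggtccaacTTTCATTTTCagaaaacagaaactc
Ifit3 and Ifit3b carried the same letters over these 40 bases, and Oas1a and Oas1g over the 27 shown for Oas1g.

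Most members were among the better expressed of the tested genes. By the level defined next, only Ifi44 (above 23.8% of the tested genes) and Mx2 (above 33.4%) lay below the middle. Levels are given here as RPKM, which are CPM divided by the exon length in kilobases, as the mean over 18 libraries, which allows genes to be compared. Ifi27l2a (chr12:103408426-103409939, GRCm39, as all gene positions from the deposited table), a small membrane protein of mitochondria and nuclear envelope, was the most abundant at 719 RPKM and sat above 99.6% of the tested genes. Bst2 (chr8:71986899-71990100), or tetherin, which holds budding virus at the cell surface, followed at 102 RPKM, and Ifi204 (chr1:173574859-173594509), a DNA-binding protein of the AIM2-like family, at 96.4 RPKM. Ifi44 (chr3:151436559-151455597) was lowest at 0.542 RPKM. Mx2 was at 1.18 RPKM, Oas2 at 3.28 and Mx1 at 7.20. C57BL/6 mice carry defective alleles of Mx1 and Mx2.

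No member passed an adjusted p under 0.05 (edgeR quasi-likelihood F-test, Benjamini-Hochberg adjustment over 17040 genes) in any of 10 comparisons: IVIg against PBS in each genotype and averaged over the 3, each knockout against WT in PBS and in IVIg, and the IVIg effect of each knockout against that of WT. DESeq2 and limma voom with quality weights also called 0 members in each. The background was low as well: the share of all tested genes called was 0.00587% for IVIg in WT, and 0% for IVIg in the Dectin-1 knockout, in the FcgRIIb knockout and over the 3 genotypes. It was 0.0411% for the Dectin-1 knockout in PBS, 0.0528% for it in IVIg, 0% for the FcgRIIb knockout in PBS, 0.0117% for it in IVIg and 0% for both differences of IVIg effects. A count of 0 among 35 is near these shares, and the intervals given with each result say how large a change a comparison could leave undetected. Fewer cells making a transcript and less transcript per cell cannot be told apart in bulk RNA.

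With IVIg in WT mice, the median log2 fold change of the members was -0.26, against 0.01 over all tested genes, with 7 members above 0 and 28 below. The library medians of the members vary within groups with a pooled SD of 0.23 on the same log2 scale. That SD is over all 18 libraries and includes the shallow one, whose median was -0.52. Oas3 alone had an unadjusted p under 0.05, which is 2.86% of the members against 2.52% of all tested genes. For 24 of 35 members the 95% interval lay within a 2-fold change either way. Marker sums also differed between these groups: the 8 markers of classical monocytes summed to between 9687 and 17928 CPM with PBS and between 4838 and 9587 CPM with IVIg, and the 12 of non-classical monocytes to between 5569 and 7501 CPM with PBS and between 8391 and 10552 CPM with IVIg. Neither pair of ranges overlapped. The part of this shift in the members' values was not tested.

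In the Dectin-1 knockout the median was -0.08 against 0.02 over all genes, with 15 members above 0 and 20 below, and 28 intervals lay within a 2-fold change. Neutrophil markers summed to between 51.3 and 1035 CPM with IVIg there and between 11.9 and 39.2 CPM with PBS, and T cell markers to between 21.9 and 26.9 CPM and between 10.6 and 20.7 CPM. Neither pair overlapped, and their part was not tested. In the FcgRIIb knockout it was 0.09 against 0.01, with 21 above and 14 below, and again 28 intervals within a 2-fold change. That group includes the shallow library, without which the median was 0.10. No member had an unadjusted p under 0.05 in either, where 3.26% and 3.19% of all genes did. Averaged over the 3 genotypes the median was -0.04 against 0.02, no member had an unadjusted p under 0.05 (2.31% of all genes did), and 33 of 35 intervals lay within a 2-fold change. Of all tested genes, 6.33% in WT, 8.8% in the Dectin-1 knockout and 7.04% in the FcgRIIb knockout had no overlap between the PBS and the IVIg libraries. Among the members, Irf7 was the 1 without overlap in WT and Herc6 the 1 in the FcgRIIb knockout, and in the Dectin-1 knockout there was 0. Classical monocyte markers summed to between 9295 and 11140.4 CPM with PBS and between 7499 and 8535 CPM with IVIg in the FcgRIIb knockout, and conventional dendritic cell markers to between 442 and 475 CPM with PBS and between 329 and 413 CPM with IVIg, both without overlap. Their part in the values was not tested.

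**Figure D1:**
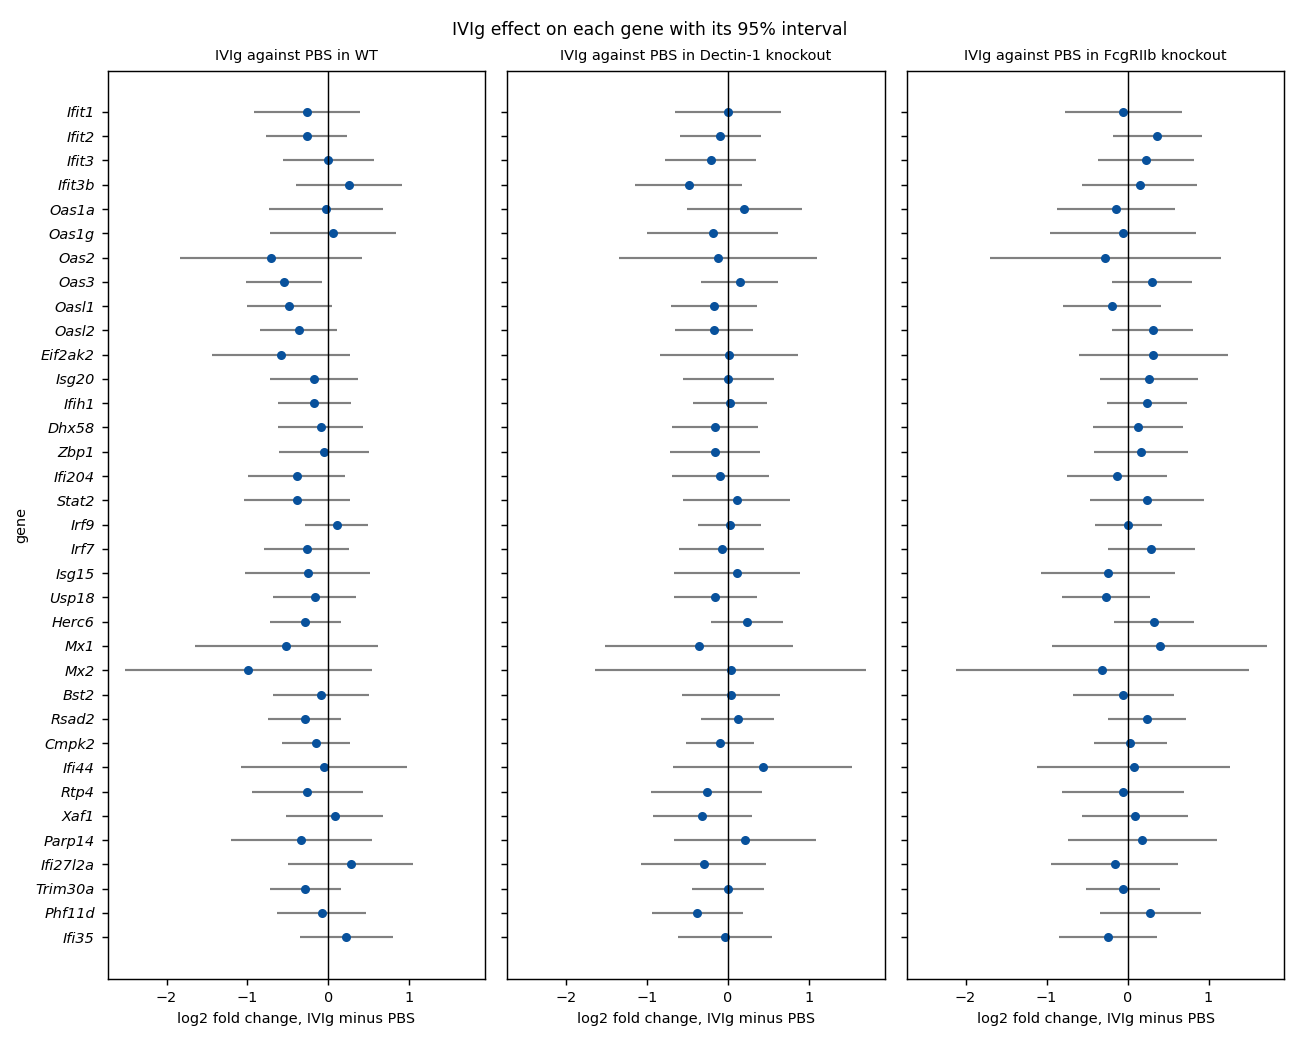
Fitted log2 fold change of each of the 35 genes, IVIg minus PBS, in WT, Dectin-1 knockout and FcgRIIb knockout mice, with 95% intervals as bars. Intervals are widest for Mx2, and in WT 28 of 35 points lie below 0.

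The transcription factors of the response are given first, with values in CPM in the order of replicates 1, 2 and 3. Irf7 (chr7:140842619-140846394), which amplifies interferon production and is itself induced by it, stood at 281, 332 and 296 CPM in WT PBS, 222, 279.5 and 252 CPM in WT IVIg, 227, 311 and 333 CPM in Dectin-1 knockout PBS, 349.8, 235 and 241 CPM in Dectin-1 knockout IVIg, 259.5, 110.1 and 316 CPM in FcgRIIb knockout PBS and 308, 302 and 295 CPM in FcgRIIb knockout IVIg. In WT every IVIg library lay below every PBS library, and the groups overlapped in both knockouts. The log2 fold change with IVIg was -0.27 (SE 0.25, 95% interval -0.79 to 0.25) in WT, -0.08 (SE 0.25, 95% interval -0.60 to 0.45) in the Dectin-1 knockout and 0.29 (SE 0.26, 95% interval -0.24 to 0.83) in the FcgRIIb knockout. Stat2 (chr10:128106428-128128718), which carries the signal from the receptor to the nucleus, stood at 86.6, 110.1 and 201 CPM in WT PBS, 149, 68.03 and 86.7 CPM in WT IVIg, 88.2, 106 and 123 CPM in Dectin-1 knockout PBS, 112, 108 and 122 CPM in Dectin-1 knockout IVIg, 106, 50.8 and 61.7 CPM in FcgRIIb knockout PBS and 72.96, 102 and 105 CPM in FcgRIIb knockout IVIg. Its highest levels were in WT PBS replicate 3 and in WT IVIg replicate 1, and the treatment groups overlapped in each genotype. The change with IVIg was -0.39 (SE 0.31, 95% interval -1.04 to 0.27) in WT. Irf9 (chr14:55841028-55847487), the DNA-binding partner in that complex, stood at 163, 179 and 168 CPM in WT PBS, 152, 189 and 206 CPM in WT IVIg, 169.9, 175 and 178 CPM in Dectin-1 knockout PBS, 187, 180.3 and 163 CPM in Dectin-1 knockout IVIg, 179, 121 and 210.4 CPM in FcgRIIb knockout PBS and 212, 169.6 and 160.2 CPM in FcgRIIb knockout IVIg. Outside the shallow library its highest level was 1.39 times its lowest, the narrowest spread of the 35, and the change with IVIg was 0.10 (SE 0.19, 95% interval -0.29 to 0.49) in WT. For the average over genotypes it was 0.04 (SE 0.11, 95% interval -0.19 to 0.27).

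Among the RNA-binding and RNA-degrading effectors, Ifit3 (chr19:34560931-34566131), which stabilises IFIT complexes on foreign RNA, stood at 80.01, 74.6 and 70.8 CPM in WT PBS, 68.4, 75.7 and 81.5 CPM in WT IVIg, 80.9, 115 and 113 CPM in Dectin-1 knockout PBS, 137, 68.04 and 63.6 CPM in Dectin-1 knockout IVIg, 87.8, 56.5 and 84.6 CPM in FcgRIIb knockout PBS and 99.3, 121 and 67.2 CPM in FcgRIIb knockout IVIg. Dectin-1 knockout IVIg replicate 1 was the highest, and the WT groups were nearly level, with a change of 0.00 (SE 0.27, 95% interval -0.56 to 0.56). Its near copy Ifit3b (chr19:34585370-34590801) stood at 20.02, 15.7 and 16.9 CPM in WT PBS, 17.2, 22.4 and 22.9 CPM in WT IVIg, 20.7, 25.1 and 30.7 CPM in Dectin-1 knockout PBS, 20.7, 15.7 and 18.4 CPM in Dectin-1 knockout IVIg, 21.4, 1.41 and 26.3 CPM in FcgRIIb knockout PBS and 29.6, 32.8 and 12.4 CPM in FcgRIIb knockout IVIg. The value in the shallow library is 1 count. Reads from these near-identical genes, and from Oas1a and Oas1g, may be split between them, so the values of each are uncertain. The estimate for Ifit3b was -0.49 (SE 0.32, 95% interval -1.15 to 0.18) with IVIg in the Dectin-1 knockout, where the groups overlapped. Ifit2 (chr19:34528094-34553819), of the same family, stood at 84.2, 76.3 and 77.8 CPM in WT PBS, 59.2, 61.6 and 76.99 CPM in WT IVIg, 74.1, 107 and 95.1 CPM in Dectin-1 knockout PBS, 108, 69.4 and 82.1 CPM in Dectin-1 knockout IVIg, 81.4, 102 and 48.8 CPM in FcgRIIb knockout PBS and 86.6, 111 and 74.1 CPM in FcgRIIb knockout IVIg. Its largest IVIg estimate was 0.37 (SE 0.26, 95% interval -0.18 to 0.92) in the FcgRIIb knockout, and the groups overlapped in all 3 genotypes.

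Oas3 (chr5:120891163-120915726), which makes the oligoadenylates that switch on RNase L, stood at 181, 258 and 267 CPM in WT PBS, 153, 141 and 189 CPM in WT IVIg, 138, 229 and 195 CPM in Dectin-1 knockout PBS, 212, 214 and 195 CPM in Dectin-1 knockout IVIg, 183, 112 and 115 CPM in FcgRIIb knockout PBS and 162, 187 and 177 CPM in FcgRIIb knockout IVIg. In WT the IVIg libraries lay lower except that IVIg replicate 3 was above PBS replicate 1. The change was -0.55 (SE 0.23, 95% interval -1.02 to -0.07) (unadjusted p = 0.0257, adjusted p = 1 by edgeR), the smallest unadjusted p of any member in the IVIg comparisons. In the Dectin-1 knockout it was 0.14 (SE 0.23, 95% interval -0.33 to 0.62) and in the FcgRIIb knockout 0.30 (SE 0.24, 95% interval -0.19 to 0.80). Tested directly, the IVIg effect differed from that in WT by 0.69 (SE 0.32, 95% interval 0.02 to 1.36) in the Dectin-1 knockout (unadjusted p = 0.0439, adjusted p = 0.998 by edgeR) and by 0.85 (SE 0.33, 95% interval 0.16 to 1.54) in the FcgRIIb knockout (unadjusted p = 0.0178, adjusted p = 1). Neither passed the adjusted threshold. Over the other settings and left-out libraries the WT estimate for Oas3 ran from -0.70 to -0.41.

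Oasl2 (chr5:115034997-115050295), a relative of OAS with ubiquitin-like domains, stood at 145, 199 and 220.3 CPM in WT PBS, 146, 134 and 157 CPM in WT IVIg, 143, 214 and 172 CPM in Dectin-1 knockout PBS, 170.0, 156 and 143 CPM in Dectin-1 knockout IVIg, 158, 64.9 and 128 CPM in FcgRIIb knockout PBS and 139, 187 and 153 CPM in FcgRIIb knockout IVIg. The groups overlapped, and the WT change was -0.37 (SE 0.23, 95% interval -0.85 to 0.11). Oasl1 (chr5:115061299-115075974), which restrains translation of IRF7, stood at 17.7, 24.4 and 22.1 CPM in WT PBS, 10.3, 14.5 and 21.04 CPM in WT IVIg, 17.2, 24.2 and 22.8 CPM in Dectin-1 knockout PBS, 16.2, 21.8 and 18.7 CPM in Dectin-1 knockout IVIg, 19.1, 14.1 and 13.4 CPM in FcgRIIb knockout PBS and 12.7, 16.2 and 13.5 CPM in FcgRIIb knockout IVIg. Its WT change was -0.49 (SE 0.25, 95% interval -1.01 to 0.04), with overlap between the groups. Eif2ak2 (chr17:79159993-79190002), the kinase PKR that halts translation on double-stranded RNA, stood at 54.1, 77.1 and 154 CPM in WT PBS, 108, 29.01 and 53.5 CPM in WT IVIg, 60.5, 78.5 and 67.00 CPM in Dectin-1 knockout PBS, 71.5, 73.1 and 63.2 CPM in Dectin-1 knockout IVIg, 56.9, 7.06 and 44.4 CPM in FcgRIIb knockout PBS and 38.1, 68.9 and 64.05 CPM in FcgRIIb knockout IVIg. The high values were again WT PBS replicate 3 and WT IVIg replicate 1, and the WT change was -0.58 (SE 0.41, 95% interval -1.43 to 0.27). As a group, 9 of the 12 effectors were below 0 with IVIg in WT, 8 in the Dectin-1 knockout and 5 in the FcgRIIb knockout, with medians of -0.27, -0.11 and 0.19.

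Isg15 (chr4:156283912-156285253), the ubiquitin-like modifier, stood at 29.6, 43.2 and 44.7 CPM in WT PBS, 24.3, 29.2 and 44.9 CPM in WT IVIg, 32.6, 45.8 and 55.7 CPM in Dectin-1 knockout PBS, 80.3, 32.8 and 34.4 CPM in Dectin-1 knockout IVIg, 39.8, 40.9 and 86.8 CPM in FcgRIIb knockout PBS and 73.5, 41.7 and 38.8 CPM in FcgRIIb knockout IVIg. FcgRIIb knockout PBS replicate 3 and Dectin-1 knockout IVIg replicate 1 were the highest, and no pair of treatment groups was separate. Its change with IVIg was -0.26 (SE 0.37, 95% interval -1.03 to 0.52) in WT, 0.11 (SE 0.37, 95% interval -0.67 to 0.89) in the Dectin-1 knockout and -0.24 (SE 0.39, 95% interval -1.07 to 0.58) in the FcgRIIb knockout. Usp18, the protease that removes ISG15 and dampens the receptor, ranged from 30.9 to 65.7 CPM over the 17 deeper libraries, and Herc6, the ligase that attaches ISG15 in mice, from 24.4 to 60.5 CPM.

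Mx1 (chr16:97248235-97264107), a dynamin-like GTPase, stood at 23.6, 19.6 and 79.00 CPM in WT PBS, 62.3, 10.9 and 12.3 CPM in WT IVIg, 23.6, 27.7 and 38.9 CPM in Dectin-1 knockout PBS, 16.4, 21.5 and 31.2 CPM in Dectin-1 knockout IVIg, 21.5, 22.6 and 12.04 CPM in FcgRIIb knockout PBS and 17.5, 26.3 and 23.7 CPM in FcgRIIb knockout IVIg. Here too WT PBS replicate 3 and the first WT IVIg library were the highest, and the other 2 WT IVIg libraries were among the lowest. The WT change of -0.52 (SE 0.54, 95% interval -1.65 to 0.61) had an accordingly wide interval. Bst2 stood at 75.6, 97.9 and 85.6 CPM in WT PBS, 61.2, 95.8 and 86.2 CPM in WT IVIg, 76.5, 90.5 and 102 CPM in Dectin-1 knockout PBS, 124, 77.1 and 76.7 CPM in Dectin-1 knockout IVIg, 98.9, 35.3 and 152 CPM in FcgRIIb knockout PBS and 129.6, 102 and 86.4 CPM in FcgRIIb knockout IVIg. FcgRIIb knockout PBS replicate 3 was highest, the groups overlapped, and the change averaged over genotypes was -0.04 (SE 0.17, 95% interval -0.39 to 0.31). Rsad2 (chr12:26492745-26506451), or viperin, which makes a chain-terminating nucleotide, stood at 90.8, 92.4 and 77.7 CPM in WT PBS, 57.4, 74.7 and 80.4 CPM in WT IVIg, 71.4, 111 and 84.9 CPM in Dectin-1 knockout PBS, 118, 83.4 and 89.4 CPM in Dectin-1 knockout IVIg, 70.03, 63.5 and 79.99 CPM in FcgRIIb knockout PBS and 92.97, 98.7 and 69.00 CPM in FcgRIIb knockout IVIg. With IVIg the Dectin-1 knockout libraries all lay above the WT libraries, but the share of all genes without overlap was not taken for that pair of groups. The change of Rsad2 with IVIg was -0.29 (SE 0.21, 95% interval -0.74 to 0.15) in WT.

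Of the sensors, Ifi204 stood at 291, 337 and 345 CPM in WT PBS, 267, 177 and 298 CPM in WT IVIg, 349, 331 and 386 CPM in Dectin-1 knockout PBS, 429, 323 and 246 CPM in Dectin-1 knockout IVIg, 237, 655 and 394 CPM in FcgRIIb knockout PBS and 432, 317 and 365 CPM in FcgRIIb knockout IVIg. The shallow library was the highest and WT IVIg replicate 2 the lowest, and the WT change was -0.39 (SE 0.29, 95% interval -0.99 to 0.21). Ifih1, the RNA sensor MDA5, ranged from 70.4 to 148 CPM over the 17 deeper libraries, Dhx58, its helper LGP2, from 66.9 to 101.3 CPM, and Zbp1, a sensor of Z-form nucleic acid, from 84.5 to 151 CPM. Of these 4 sensors 4 were below 0 with IVIg in WT and 3 in the Dectin-1 knockout, while 3 were above 0 in the FcgRIIb knockout, and none passed the test. Among the remaining members, Ifi27l2a stood at 276, 273 and 218 CPM in WT PBS, 159, 350.2 and 419.6 CPM in WT IVIg, 346, 382 and 449 CPM in Dectin-1 knockout PBS, 429, 287 and 241 CPM in Dectin-1 knockout IVIg, 273, 181 and 660.1 CPM in FcgRIIb knockout PBS and 435, 334 and 281 CPM in FcgRIIb knockout IVIg. WT IVIg replicate 1 was the lowest and FcgRIIb knockout PBS replicate 3 the highest, and the WT change was 0.28 (SE 0.37, 95% interval -0.50 to 1.05). Phf11d (chr14:59584856-59602919), a PHD finger protein, stood at 25.98, 20.5 and 18.5 CPM in WT PBS, 15.4, 26.6 and 19.4 CPM in WT IVIg, 17.4, 27.2 and 25.5 CPM in Dectin-1 knockout PBS, 22.3, 13.02 and 19.3 CPM in Dectin-1 knockout IVIg, 15.3, 21.2 and 23.7 CPM in FcgRIIb knockout PBS and 24.5, 26.95 and 19.8 CPM in FcgRIIb knockout IVIg. Its largest IVIg estimate was -0.38 (SE 0.27, 95% interval -0.94 to 0.19) in the Dectin-1 knockout, with overlap. Ifi44 stood at 1.502, 3.402 and 3.18 CPM in WT PBS, 1.12, 4.404 and 2.24 CPM in WT IVIg, 0.9999, 2.87 and 3.65 CPM in Dectin-1 knockout PBS, 6.62, 2.44 and 2.35 CPM in Dectin-1 knockout IVIg, 3.07, 7.06 and 3.71 CPM in FcgRIIb knockout PBS and 4.54, 3.19 and 3.45 CPM in FcgRIIb knockout IVIg. It rested on few counts, 5 in the shallow library among them, and its estimate was 0.15 (SE 0.31, 95% interval -0.49 to 0.79) averaged over genotypes.

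**Figure D2:**
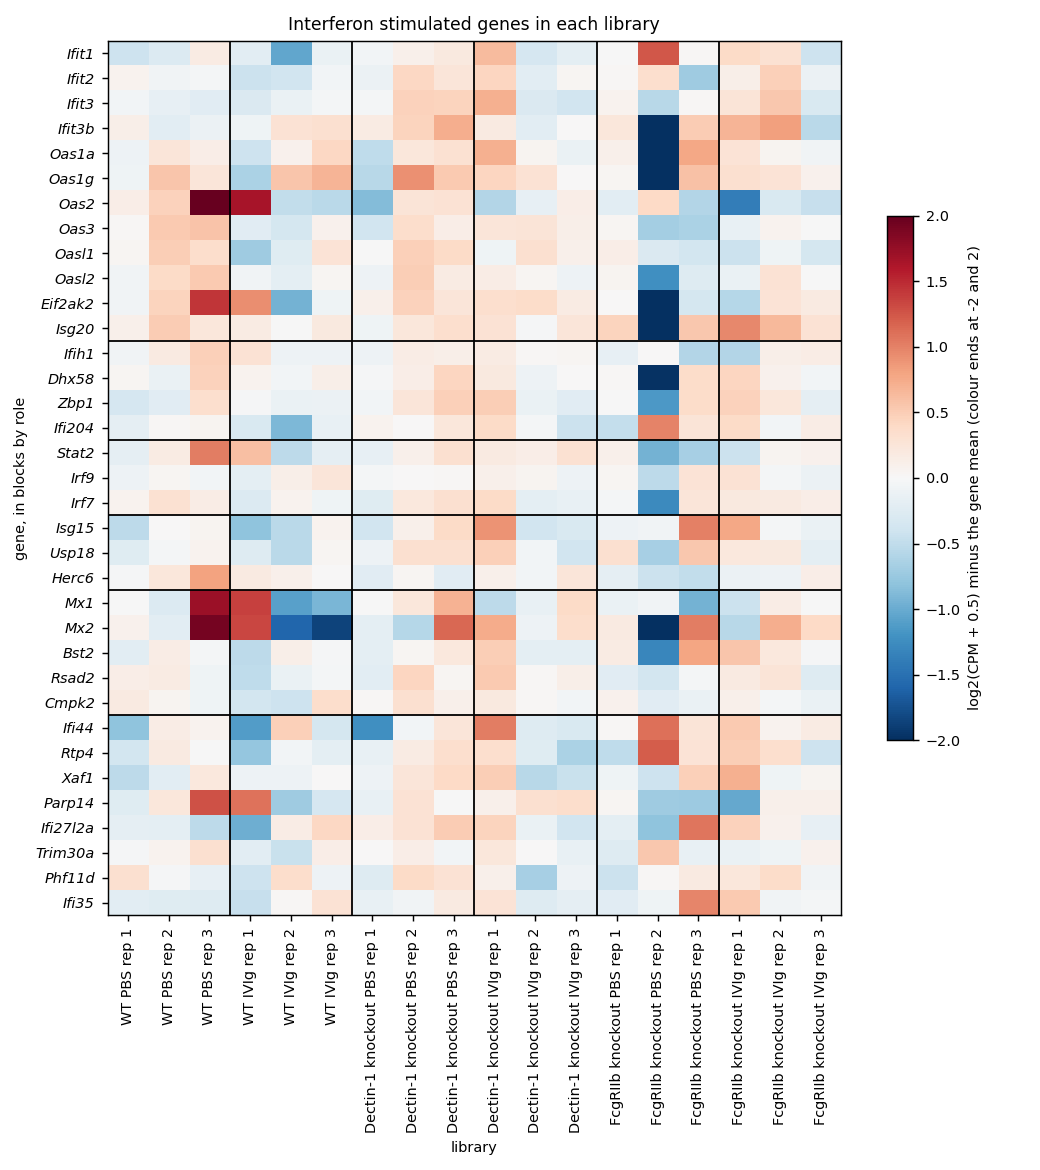
Each of the 35 genes in rows, in blocks by role, and each of the 18 libraries in columns, coloured by log2 of CPM plus a pseudocount minus the mean of the gene. The WT PBS replicate 3 and WT IVIg replicate 1 columns are red for Oas2, Mx1, Mx2, Eif2ak2, Parp14 and Stat2, and the shallow library, FcgRIIb knockout PBS replicate 2, is blue for many genes.

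Of the genotype comparisons, the FcgRIIb knockout against WT in PBS had the most members with an unadjusted p under 0.05. There were 9, or 25.7% of the members against 9.65% of all tested genes, and 8 of them were lower, which is 22.9% against 3.5%. None passed the adjustment, the smallest adjusted p being 0.503 (edgeR). Herc6 stood at 33.98, 40.3 and 60.5 CPM in WT PBS, 38.99, 37.1 and 34.6 CPM in WT IVIg, 29.4, 35.6 and 29.5 CPM in Dectin-1 knockout PBS, 36.99, 33.3 and 41.1 CPM in Dectin-1 knockout IVIg, 30.3, 25.4 and 24.4 CPM in FcgRIIb knockout PBS and 31.9, 32.2 and 37.96 CPM in FcgRIIb knockout IVIg, with every FcgRIIb knockout PBS library below every WT PBS library, and a log2 fold change of -0.72 (SE 0.23, 95% interval -1.21 to -0.23). The share of all genes without overlap was not taken for this pair of groups. Of the exon bases of Herc6 13.7% overlap Gm45193 on the same strand, so some of its counts may belong to either gene. Oas3 differed by -0.73 (SE 0.24, 95% interval -1.23 to -0.23) and Oas2 by -1.69 (SE 0.66, 95% interval -3.06 to -0.31), both with overlap. The others were Eif2ak2 at -1.05, Parp14, a mono-ADP-ribosyltransferase, at -0.93, Stat2 at -0.75, Oasl2 at -0.55 and Ifih1 at -0.51. Ifi35, a leucine-zipper protein, was higher, at 0.65 (SE 0.29, 95% interval 0.04 to 1.25), and 16.8% of its exon bases overlap Gm11626 on the opposite strand, which the counting did not separate. The median of all 35 was -0.10 against -0.05 over all genes, and 18 intervals lay within a 2-fold change. Conventional dendritic cell markers summed to between 442 and 475 CPM in the knockout and between 304 and 378 CPM in WT, and erythroid markers (8 genes) to between 11.6 and 25.4 CPM and between 4.62 and 8.96 CPM. Neither pair overlapped, and their part was not tested.

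The count of 9 changed when libraries were left out. It fell to 1 without WT PBS replicate 3 and to 2 without FcgRIIb knockout PBS replicate 3, was 6 without the shallow library, and was 11 without FcgRIIb knockout PBS replicate 1. With a correction for gene length it was 5. Without WT PBS replicate 3 and WT IVIg replicate 1 it was 1, namely Oas3 at -0.65 (SE 0.28), and Oas2 then differed by -0.71 (SE 0.40) and Herc6 by -0.47 (SE 0.24). The share of all genes at that p was not taken in these fits. Whether the counts moved apart from the background is therefore not known. Members longer than the median length had a median of -0.51 and the shorter ones 0.21 in this comparison. Length moved with the libraries in general: the rank correlation of a gene's deviation with its length, over 5049 well expressed genes, ran from -0.65 in FcgRIIb knockout PBS replicate 3 and IVIg replicate 1 to 0.58 in WT IVIg replicate 1, and over the 35 members from -0.70 to 0.50. All points of each correlation come from 1 library. Its part in the members' differences was not tested beyond that correction.

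The FcgRIIb knockout with IVIg had a median of 0.18 against -0.02 over all genes, with 25 members above 0. Without overlap, non-classical monocyte markers summed to between 6557 and 7594 CPM in the knockout and between 8391 and 10552 CPM in WT, B cell markers (8 genes) to between 42.0 and 55.1 CPM and between 28.5 and 37.1 CPM, and NK cell markers (7 genes) to between 7.65 and 17.4 CPM and between 3.33 and 4.26 CPM. Their part was not tested. Oas2 at -1.26 and Isg20, an RNA exonuclease, at 0.55 had an unadjusted p under 0.05, which is 5.71% of the members against 5.44% of all genes, and the adjusted p of both was 0.904 (edgeR). The Dectin-1 knockout had a median of 0.04 against -0.02 in PBS and of 0.15 against -0.02 in IVIg. Markers without overlap from WT in PBS were those of T cells (10.6 to 20.7 CPM against 22.8 to 37.4 CPM), plasma cells (371 to 416 CPM against 433 to 462 CPM) and erythroid cells (13.6 to 16.0 CPM against 4.62 to 8.96 CPM), and in IVIg those of neutrophils (51.3 to 1035 CPM against 4.57 to 47.9 CPM). Their part was not tested. In PBS, Oas2 at -1.35 and Herc6 at -0.51 had an unadjusted p under 0.05 (5.71% against 4.05% of all genes, adjusted p = 0.909 for both by edgeR), and in IVIg Rsad2 at 0.45 (2.86% against 3.45%, adjusted p = 1). Without WT PBS replicate 3 the count in PBS was 0, with no share of all genes taken in that fit. The genotype comparisons and the IVIg comparison in WT share their WT libraries, so their values are not separate evidence.

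The differences between IVIg effects had a median of 0.19 for the Dectin-1 knockout and 0.23 for the FcgRIIb knockout, against 0.00 and 0.01 over all genes. Of the 35 members 24 and 28 were above 0, and both share the WT libraries. Oas3 was the 1 member with an unadjusted p under 0.05 in each, which is 2.86% of the members against 3.75% and 2.86% of all genes. The intervals were wide, with 13 and 7 of 35 within a 2-fold change.

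**Figure D3:**
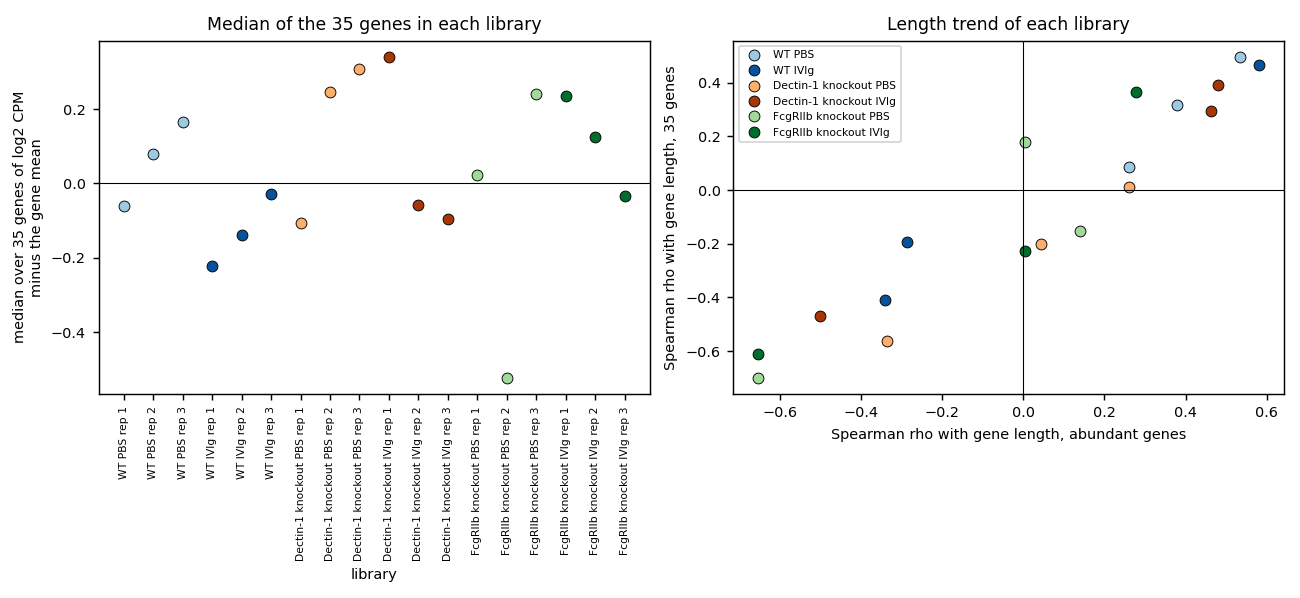
Median over the 35 genes of the deviation from the gene's mean, in log2 CPM, for each of the 18 libraries by group. The 17 deeper libraries lie between -0.22 and 0.34 and the shallow library at -0.52, and without it the WT IVIg libraries (-0.22 to -0.03) lie below the FcgRIIb knockout PBS libraries (0.02 and 0.24). That pair of groups differs in both genotype and treatment and was not tested.

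Per library, the median deviation of the members from their own means ran from -0.22 in WT IVIg replicate 1 to 0.34 in Dectin-1 knockout IVIg replicate 1 among the deeper libraries, and was -0.52 in the shallow one. In that library Oas1g, Isg20 and Mx2 had a count of 0, which at its depth allows up to 4.24 CPM. Within groups, the median SD of log2 CPM in the 17 deeper libraries was 0.34 for the members and 0.47 for all tested genes. Mx2 at 1.22, Oas2 at 0.86 and Mx1 at 0.83 were the most variable, and Irf9 at 0.15 and Trim30a at 0.18 the least.

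Mx2, Oas2 and Mx1 were all highest in 2 libraries, WT PBS replicate 3 and WT IVIg replicate 1. This pattern was chosen after the values were seen, as were Oas2, Mx2, Parp14 and Ifih1 in it. Mx2 also varied in the 15 other deeper libraries, from 0.510 to 7.59 CPM. For 7 of the 35 members (20%) both libraries lay above every one of the 15 other deeper libraries, against 11.8% of all tested genes and 20 of 103 further pathway genes (19.4%). Oas2 stood at 58.7 and 37.9 CPM against 4.19 to 16.4 CPM in the other 15. Mx1 stood at 79.0 and 62.3 CPM against 10.9 to 38.9 CPM. Parp14 stood at 429.6 and 375 CPM against 87.0 to 224 CPM. Mx2, Eif2ak2, Stat2 and Ifih1 were the others. Of the 2 libraries 1 is from PBS and 1 from IVIg. Both exceeded the other 15 by at least 1.5 times for Oas2, Parp14 and Mx1, 8.57% of the members against 2.22% of all genes.

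The other members did not have both libraries above all of the other 15, and they differed among themselves. Herc6 was at 60.5 and 39.0 CPM there against 24.4 to 41.1 CPM in the other 15. Isg15 was at 44.7 and 24.3 CPM there against 29.2 to 86.8 CPM in the other 15, and Ifi27l2a, at 217.7 and 159 CPM, lay below all of them (240.7 to 660.1 CPM). The same 2 libraries had the highest rank correlations of deviation with gene length, 0.53 and 0.58. The 7 members highest there have 3614 (Mx2) to 9306 (Parp14) exon bases, while Ifi27l2a has 463 and Isg15 703. Other long members were not among the 7. The mean of the 2 libraries was 0.67 times the median of the other 15 for Ifi44 (6129 bases), 0.89 for Irf9 (5386) and 0.76 for Phf11d (4498). It was 1.12 times that median for Oas3 (7069 bases) and 1.46 for Herc6 (9292). The plasmacytoid dendritic cell markers summed to 162 and 165 CPM there, against 86.4 to 159 CPM in the other deeper libraries, with Siglech at 0.795 and 0.961 CPM. The neutrophil markers summed to 3.93 and 4.57 CPM there, against 9.48 to 1035 CPM in the other deeper libraries. The part of length or of other cells in the pattern was not tested. Leaving both libraries out, the median IVIg change of the members in WT was -0.13, and 3 members had an unadjusted p under 0.05. They were Mx2 at -2.30, Mx1 at -0.92 and Oas2 at -0.90, all from the 7 highest in the libraries left out. Mx2 stood at 0.717 and 0.510 CPM in the WT IVIg libraries that remained. The share of all genes at that p was not taken in this fit.

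Upstream of the members, counts of the interferon genes themselves were near 0. Of 21 listed interferon genes 5 had any count, 110 counts in all over the 18 libraries and 72 from the 18 type I genes, and none passed the filter for testing. The receptor and its kinases were well expressed. Ifnar1 ranged from 70.6 to 193 CPM over the 18 libraries, Ifnar2 from 165 to 257 CPM, Jak1 from 238 to 420.5 CPM and Tyk2 from 56.5 to 164 CPM. In WT the IVIg change was -0.06 (SE 0.24) for Ifnar1, 0.20 (SE 0.19) for Ifnar2, -0.10 (SE 0.20) for Jak1 and -0.15 (SE 0.24) for Tyk2, none past the test. A wider list of 131 pathway genes, which adds negative regulators, inducers of interferon and further interferon stimulated genes, had 103 tested. None of these was called in either direction in any of the 10 comparisons. Its median change with IVIg was -0.16 in WT, -0.03 in the Dectin-1 knockout and 0.06 in the FcgRIIb knockout, and 4 of 103 (3.88%, against 2.52% of all tested genes) had an unadjusted p under 0.05 in WT, all lower. In PBS, the FcgRIIb knockout had 12 of 103 (11.7%, against 9.65% of all tested genes) at an unadjusted p under 0.05, 10 of them lower (9.71% against 3.5%), with a median of -0.17.

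Outside the list, the genes running most like the median of the members, by Pearson correlation of log2 CPM centred on group means over 18 libraries among 10091 genes, were Ctc1 at 0.91, Znhit1 at 0.91, Nfkbib at 0.88, Dmac2 at 0.87, Sting1 at 0.87 and Gpsm3 at 0.86. Without the shallow library they were Sp140 at 0.92, Snrpa at 0.91, Gm17017 at 0.90, Ndufs5 at 0.89, Stk3 at 0.88 and Znhit1 at 0.87. Only Znhit1 was in both, so the order rests on that library. Sting1 and Sp140 are on the wider pathway list.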

How the data were processed

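RNA of sorted spleen monocytes was sequenced from stranded messenger RNA libraries, per the labels' protocols. Reads were aligned with STAR to GRCm39, per the submitters' processing notes, and counted over the exons of Ensembl release 104 by featureCounts 2.0.2, per the file headers. The authors deposited raw counts per gene with exon lengths. Its command line lets a read pair count for more than 1 gene and has no strand setting, so genes that overlap on either strand share reads. A further 18 columns could be tied to no sample and were left out. Rows without a symbol (1492) stayed in the totals.

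Genes passing filterByExpr over the 6 groups were scaled by TMM and tested in 1 model of the 18 libraries, with 12 residual degrees of freedom, with the F-test of the quasi-likelihood fit in edgeR 4.0.16 and R 4.3.3. A call needed a p under 0.05 after Benjamini-Hochberg adjustment within the comparison. CPM use TMM-scaled sizes, log2 CPM a prior count of 2, and intervals are at 95%. The script was tested on simulated data. Alternatives were DESeq2 1.42.0, limma 3.58.1 (voom), another scaling and fit, 2 filters, a length correction and each library left out. A chi-square per degree of freedom of at least 33.4 between any 2 of the 153 pairs of libraries showed no library deposited again.

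The members and lists were chosen with earlier results of these data known. Values in every library are given for the 3 members highest and the 1 lowest in RPKM, for Irf7, Isg15, Stat2, Irf9, Ifit3 and Mx1, and, since no member was called, for the 8 with the smallest unadjusted p with IVIg. Groups come from the genotype and treatment labels, and replicate numbers follow accession order. Promoter sequences are from RefSeq (GRCm38.p6), matched by symbol. A gene of the pathway list is not reported here.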

Additional observations from a re-analysis of the deposited data

How the results depend on the processing

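The count of 0 called members held in each of the 10 comparisons under 28 or 29 alternatives each, among them DESeq2, limma voom with quality weights, RLE size factors, no filter or a stricter filter on low counts, the gene length correction and each library left out. The median change of the members moved by less than the pooled within-group SD of 0.23 everywhere, an SD that includes the shallow library. For IVIg in WT the median change ran from -0.30 to -0.04, the latter without WT PBS replicate 3. Its sign was the same throughout for that comparison, for the FcgRIIb knockout against WT in IVIg and for the difference of IVIg effects of that knockout, and changed in the others, as in the FcgRIIb knockout against WT in PBS (-0.26 to 0.07). Members at an unadjusted p under 0.05 varied more, from 0 to 6 for IVIg in WT, where 6 was reached without WT IVIg replicate 1 and 0 without WT IVIg replicate 2, WT PBS replicate 2 or WT PBS replicate 3. The share of all genes at that p was not taken in these fits, so the counts have no background beside them. Over all genes, DESeq2 called 175 for the FcgRIIb knockout in PBS, where edgeR called 0, and the cause was not tested. Leaving out WT PBS replicate 3 and WT IVIg replicate 1, alone or with the shallow library, was added after the data were seen. No paired analysis was possible because the replicate numbers follow accession order and do not pair libraries. Depth limits Mx2 and Ifi44 most, and in the shallow library 3 counts amount to 4.24 CPM, so values at or under that, such as Ifit3b at 1.41 CPM (1 count), are not told apart from 0.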
